A study of Mus musculus with 4 samples.

Results

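The circRNAs of the cortex of sham-operated mice were described from a single library. Circular RNAs (circRNAs) are closed RNA molecules made by back-splicing, in which the end of an exon is spliced to the start of the same exon or of an exon upstream of it. The set consisted of every circRNA with 2 or more counts in the sham library, which were 10865 of the 23980 circRNAs in the table of the series (45.3%). They held 101197 of the 106558 counts of this library (94.97%). Another 5361 circRNAs with exactly 1 sham count lay just below the limit and 3216 with exactly 2 lay just above it. The series lists only circRNAs that sum to 2 or more counts over its 4 libraries. Each of the 5361 was therefore also counted in another library, and circRNAs with 1 count in sham alone are absent.

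The series sets brain tissue of mice whose middle cerebral artery was closed for good by a filament (MCAO), as in a stroke, beside sham. The sham group was cortex from the regions that match the infarct core and the penumbra in the operated mice. The sources used here do not give strain, age, sex, the number of sham mice or their time of sampling. The other 3 libraries, each made from mixed RNA of 6 mice at 3 h after MCAO, are core frontal (infarct core close to the frontal lobe), core occipital (infarct core close to the occipital lobe) and penumbra (the tissue around the core). Their totals were 121393, 83090 and 96349 counts in that order, and their values are given only to show whether a circRNA or a pattern was also counted there. Each group is 1 library, so no value has a replicate error and no test was possible. Square brackets hold 95% intervals, which cover counting error only: exact Clopper-Pearson for a share and exact Poisson for a level.

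As background, most circRNAs are made by the ordinary splicing machinery from exons of protein-coding genes. Back-splicing competes with linear splicing of the same transcript and is favoured where the introns on both sides of the circle can pair with each other, often through inverted repeats. Without free ends, circRNAs resist exonucleases and are long-lived. Brain is known as a tissue rich in circRNAs, many of them from genes of the synapse, and they build up in neurons, which do not divide.

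A circRNA is recognised by its back-splice junction, so the junctions of abundant circRNAs with coding exons are shown first. Each line gives 20 bases on either side of the junction, 5′ to 3′ on the host's strand, from GENCODE M21 transcripts (GRCm38). Lower case marks the end of the last exon of the circle and capitals mark the start of its first exon, which lies upstream of that last exon in the linear transcript or is the same exon.
Gigyf2 exons 4 to 8, 1:87364104-87380008, plus strand: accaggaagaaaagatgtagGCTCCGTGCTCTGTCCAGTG
Ssbp2 exons 2 to 4, 13:91524585-91564694, plus strand: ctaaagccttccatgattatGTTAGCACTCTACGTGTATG
Med13l exon 2, 5:118593333-118593570, plus strand: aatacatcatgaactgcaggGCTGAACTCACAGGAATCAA
Rps6kc1 exons 3 to 6, 1:190871592-190899571, minus strand: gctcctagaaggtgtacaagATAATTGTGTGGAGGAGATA

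The junctions of Gigyf2 and Arhgap10 show circRNAs of a host that share a start or an end. In Gigyf2 the same start of exon 4 was joined to different ends, and those beside the abundant circle above had few counts. In Arhgap10 (8:77344640, minus strand) the same end of exon 18 was joined to different starts.
Gigyf2 exons 4 to 6, 26 counts: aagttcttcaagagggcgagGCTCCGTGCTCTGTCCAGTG
Gigyf2 exons 4 to 9, 4 counts: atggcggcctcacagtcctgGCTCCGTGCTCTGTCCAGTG
Gigyf2 exons 4 to 5, 3 counts: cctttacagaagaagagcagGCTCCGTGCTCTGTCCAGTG
Arhgap10 exons 14 to 18, 90 counts: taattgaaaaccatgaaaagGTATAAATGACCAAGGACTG
Arhgap10 exons 15 to 18, 66 counts: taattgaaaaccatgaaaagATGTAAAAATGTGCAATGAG
Arhgap10 exons 16 to 18, 55 counts: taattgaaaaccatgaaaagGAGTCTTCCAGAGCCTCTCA

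Circles can be short, as the complete sequences of the Ssbp2 and Med13l circRNAs show. The Ssbp2 circle joins exons 2, 3 and 4 in 220 bases out of a genomic span of 40110 bases (capitals mark exon 3). The Med13l circle is exon 2 alone, whose end is joined to its own start in 238 bases.
Ssbp2 circle: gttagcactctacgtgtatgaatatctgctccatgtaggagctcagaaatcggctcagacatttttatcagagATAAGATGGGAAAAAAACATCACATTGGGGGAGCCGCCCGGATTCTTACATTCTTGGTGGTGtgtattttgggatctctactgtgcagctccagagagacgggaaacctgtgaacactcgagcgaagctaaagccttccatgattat
Med13l circle: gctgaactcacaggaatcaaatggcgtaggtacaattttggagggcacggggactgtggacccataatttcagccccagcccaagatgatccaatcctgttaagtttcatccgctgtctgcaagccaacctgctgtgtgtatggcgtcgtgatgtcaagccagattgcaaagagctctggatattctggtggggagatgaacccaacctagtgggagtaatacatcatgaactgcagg

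Most circRNAs of the sham cortex were rare, and a small number were abundant. The median circRNA had 4 counts, the 25th percentile was 2, the 75th 7, the 90th 17 and the 99th 95. The mean was 9.31 counts and the highest count 985. Only 105 circRNAs had 100 or more counts, and these held 22.8% of the counts of the set [22.5–23.0]. The 10 most abundant held 5.96% [5.82–6.11], the 100 most abundant 22.3% [22.0–22.5] and the 1000 most abundant 54.7% [54.4–55.0], and 765 circRNAs held 50% of the counts. The Gini coefficient, which is 0 when all circRNAs have the same count and nears 1 when few hold everything, was 0.627. No circRNA came close to dominating the library, since the most abundant held 0.973% of the counts [0.914–1.04].

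**Figure D1:**
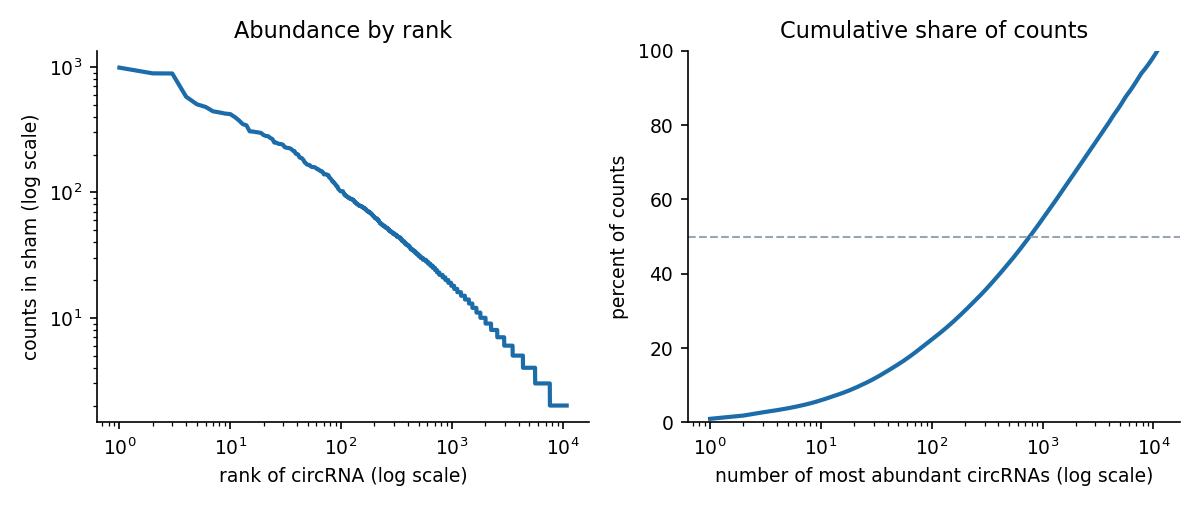
Abundance of the 10865 circRNAs with 2 or more counts in sham. The left panel plots counts against rank, both on log scales, from 985 counts at rank 1 down to the steps at 2 counts. The right panel plots the cumulative percent of counts against the number of most abundant circRNAs (log scale), with a dashed line at 50%, which is reached at 765 circRNAs.

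The most abundant circRNAs came from genes with diverse functions. Tulp4, which encodes a tubby-like protein, gave the highest count with 985 (17:6137211-6139156, 9244 CPM [8675–9840], where CPM is the count scaled to a library total of 1e6 circRNA counts). Its ends lie on exon boundaries of the gene, but no single annotated transcript holds both, so its exons were not numbered. Gigyf2, which takes part in translational repression, followed with 887 counts on exons 4 to 8 (8324 CPM [7785–8890]). Ssbp2, a single-stranded DNA binding protein, had 885 counts on exons 2 to 4 (8305 CPM [7767–8871]). The intervals of Gigyf2 and Ssbp2, which differ by 2 counts, overlap almost fully, so the order of these is not resolved.

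In sham a step separated these 3 from the next circRNAs. Exon 2 of Med13l, a subunit of the Mediator kinase module, had 578 counts (5424 CPM [4991–5885]). A circRNA of Rims1, an active zone scaffold of the presynapse, had 503 counts (1:22346293-22393948), and only 1 of its ends lies on an exon boundary. Exon 2 of Fat3, a large protocadherin, had 479 counts and exons 7 to 8 of the zinc finger gene Zfp532 (18:65651560-65656632) had 442. Exons 2 to 4 of Atxn1 (13:45795509-45956575), whose human protein carries the polyglutamine tract of a spinocerebellar ataxia, had 433. Exons 3 to 6 of Rps6kc1, a ribosomal S6 kinase family gene, had 424 counts. Exon 2 of Slc8a1, a sodium-calcium exchanger, had 420. From Rims1 at 4720 CPM [4317–5152] through Fat3 at 4495 CPM [4102–4916] and Zfp532 at 4148 CPM [3770–4553] to Slc8a1 at 3942 CPM [3574–4337] all intervals overlap. The order from Rims1 down is therefore not resolved. The interval of Rims1 also overlaps that of Med13l.

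All 10 were abundant in the 3 MCAO libraries too. Tulp4 had 1204 (core frontal), 792 (core occipital) and 855 counts (penumbra), and in the same sequence Gigyf2 had 864, 589 and 737, Ssbp2 925, 500 and 762, and Med13l 516, 426 and 451. The step below the leading 3 was not present in core occipital, where Fat3 had 503 counts and Ssbp2 500. The lowest of the values of the 10 circRNAs in any library was 283, for Zfp532 in core occipital, the library with the lowest total.

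Annotation placed nearly all of the counts in known genes. Both ends lay exactly on exon boundaries of the same GENCODE M21 gene for 9411 circRNAs (86.6%), which held 91.2% of the counts [91.0–91.4]. Another 1073 (9.88%) had 1 end on a boundary and held 6.54% of the counts [6.39–6.69]. A further 193 lay inside a gene with neither end on a boundary, 154 had no host and 34 had their ends on boundaries of different genes. The share with both ends on boundaries was 83.6% among circRNAs with 2 counts, 90.1% among those with 10 to 29 and 98.1% among those with 100 or more. Of the circRNAs with 1 sham count, left out here, 81.6% had both ends on boundaries. All listed circRNAs with 1 sham count were also counted in another library, so this share does not cover those seen in sham alone.

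The 9411 circRNAs came from 3414 host genes, of which 3362 were protein coding. These were 15.3% of the 22028 protein-coding genes in the annotation. Of the hosts, 1612 (47.2%) had a single circRNA, 1274 had 2 to 4, 398 had 5 to 9 and 130 had 10 or more. The 130 hosts with 10 or more gave 1900 circRNAs and 26.1% of the counts on hosts [25.8–26.4]. The median host had 8 counts in all, 177 hosts had 100 or more, and 211 hosts held 50% of the counts. The share of protein-coding genes that hosted a circRNA differed between chromosomes. It was 23.8% on chromosome 18 and 21.6% on chromosome 12, compared with 9.39% on chromosome 7, 8.65% on X and 1.64% on Y. Across 3396 hosts, the genomic length of the gene had a Spearman correlation of 0.440 with its number of circRNAs and of 0.355 with its counts. For the number of exons these were 0.339 and 0.188. The hosts share 1 library, and genes are not independent replicates.

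Ranked by the sum of their circRNAs, most leading hosts were also hosts of the leading circRNAs, but the order differed. Rims2, Ptk2 and Arhgap10 were leading hosts without a circRNA among the most abundant ones named above. Atxn1 was highest with 1132 counts from 8 circRNAs, followed by Tulp4 with 1047 from 7, Gigyf2 with 936 from 7 and Ssbp2 with 932 from 5. Rps6kc1 had 648 counts, Rims2 638, Ptk2 623, Rims1 603, Arhgap10 600 and Med13l 595. The Rims1 sum leaves out the circRNA of 503 counts with only 1 end on a boundary. The hosts with the most distinct circRNAs were Dgki, a diacylglycerol kinase, with 50, Ptk2, the focal adhesion kinase, with 37, Arhgap10, a GTPase-activating protein, with 34, and Rims2, the paralog of Rims1, with 30. Next came Dennd1b with 28, Nbea with 27, Anks1b with 25, and Tasp1 and Adgrb3 with 24 each. Ptk2, Arhgap10 and Rims2 were in both rankings, while Dgki, with 50 circRNAs, had a summed count of 553.

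Circles were mostly short runs of exons. For 9273 circRNAs a transcript held both ends, and exons were numbered along the one of these transcripts with the most exons. Of these, 1889 (20.4%) had 2 exons, 1903 (20.5%) had 3, 1417 (15.3%) had 4 and 1042 (11.2%) had 5. The median was 4 exons, and 553 (5.96%) had more than 10. The median spliced length was 511 bases, with 90% of the circRNAs between 215 and 1777 bases, while the median genomic span, introns included, was 11619 bases. Spliced length assumes that every annotated exon between the ends, and no intron, is part of the circle, which counts at the junction do not show.

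Single-exon circles were few, but several were abundant. They were 422 of the 9273 numbered circRNAs (4.55%) and held 8.43% of their counts [8.25–8.61]. Their exons were long, with a median of 484 bases compared with 123 for all internal exons of the host transcripts, and 90 were over 1000 bases. The mean exon length in circles of several exons had a median of 126 bases. Exon 2 supplied 180 of the single-exon circles (42.7%), among them Med13l (238 bases), Fat3 (9:16374949-16378254, 3306 bases) and Slc8a1 (17:81647809-81649638, 1830 bases). The introns beside these 3 were long: 32475 and 77442 bases in Med13l, 122766 and 127913 in Fat3, and 88670 and 202215 in Slc8a1.

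Circles with many exons were rare and had low counts, with some exceptions. The most abundant circRNA of each size had 442 counts at 2 exons (Zfp532), 885 at 3 (Ssbp2), 424 at 4 (Rps6kc1) and 887 at 5 (Gigyf2). With 6 exons it was Stx6, a syntaxin of endosomal membrane fusion, with 184 counts on exons 2 to 7. With 7 exons it was Dgki with 166, with 8 Sergef with 171, with 9 the kinase gene Stk39 with 73 and with 10 Ttc3, an E3 ubiquitin ligase, with 203 on exons 2 to 11. Among circRNAs with 10 or more counts, the most exons were found in Lrba, which encodes a protein of vesicle trafficking, with 36 exons (5 to 40, 16 counts) and 33 exons (5 to 37, 22 counts), and in Rims1 with 27 exons (6 to 32, 12 counts). The circle with the most exons of all was one of Dync2h1, a dynein heavy chain of cilia, with 70 exons, 10965 bases and 2 counts (9:7023311-7177230). The 3 MCAO libraries held 1 count of it, in penumbra.

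The longest spliced circles with 10 or more counts came from Ash1l, Tcf20 and Lrba. Ash1l, a histone methyltransferase, had one of 5913 bases on exons 2 to 5 with 16 counts, Tcf20, a transcriptional coregulator, one of 5866 bases on exons 2 to 3 with 66, and Lrba the one of 36 exons with 5787 bases. Long genomic spans were found in the active zone gene Erc2 with 276972 bases (exons 13 to 19, 126 counts) and in Atxn1 with 258755 bases (exons 2 to 6, 139 counts). Spliced, these circles were 852 and 568 bases long.

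The first exon of the circle was most often exon 2 of the transcript. Exon 2 opened 2503 of the 9273 numbered circRNAs (27.0%), which held 38.3% of the counts of those 9273 [38.0–38.7]. The Tulp4 circRNA of 985 counts and the Rims1 one of 503 were not numbered and are left out of these shares. Exon 3 opened 13.1%, exon 4 9.45%, exon 5 7.38% and exon 6 6.74%, and 21.0% began after exon 10. Over all 56584 internal exons of the 3557 host transcripts, which had a median of 15 exons, exon 2 made up 6.26%. This is a share of exons and not of possible starts. A circle of several exons cannot begin near the end of its transcript, so possible starts lean towards early exons. At the other edge, 810 circRNAs (8.74%) ended at the exon before the last. Only 32 began at exon 1 and 21 ended at the last exon, neither of which has the splice site that back-splicing uses there. Of those opening with exon 1 the most abundant was a circle that covered the whole small nucleolar RNA gene Snora61 (4:132310240-132310369, 17 counts). Its counts varied widely between libraries, with 39, 3 and 1 in core frontal, core occipital and penumbra.

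The number given to an exon depended on the transcript chosen. Along the transcript with the fewest exons that held both ends, exon 2 opened 35.7% of numbered circRNAs with 48.0% of their counts. For single genes, the leading circRNAs by first exon were Ssbp2 for exon 2, Rps6kc1 for exon 3, Gigyf2 for exon 4, the dystrobrevin gene Dtnb for exon 5 (exons 5 to 8, 305 counts) and Dennd1b for exon 6 (exons 6 to 9, 139 counts).

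**Figure D2:**
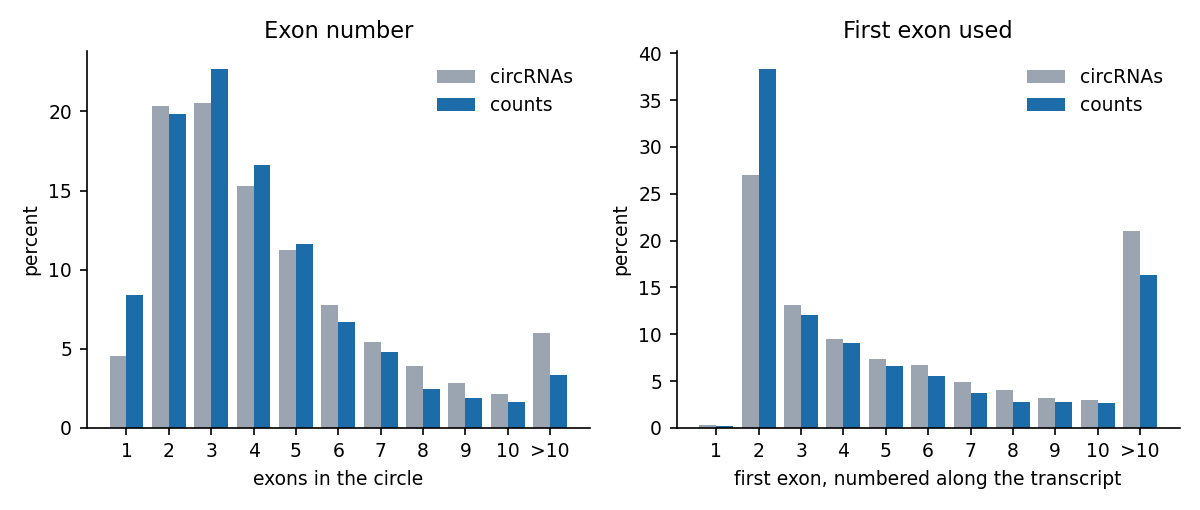
Number of exons per circle and first exon used, for the 9273 numbered circRNAs of the sham library. Bars start at 0 and give the percent of circRNAs (grey) and of their counts (blue) for each class. Circles of 2 and 3 exons are the most frequent, and exon 2 opens 27.0% of circRNAs and 38.3% of counts.

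Abundant circRNAs differed from rare ones in structure. Exon 2 was the first exon of 23.0% of circRNAs with 2 counts, 25.3% with 3 to 4, 27.7% with 5 to 9, 32.0% with 10 to 29, 36.5% with 30 to 99 and 62.0% with 100 or more. Along the transcript with the fewest exons the share went from 31.2% in the lowest class to 69.0% in the highest. Single-exon circles made up 4.05% of the lowest class and 15.0% of the highest, and circles with an annotated start codon 12.3% and 26.0%. The start codon share is not separate from the exon 2 share. A start codon lay in 37.5% of circRNAs opening with exon 2, compared with 4.63% of those opening later. The highest class held 100 numbered circRNAs, so each of its percents is a count of circRNAs. CircRNAs of the same host share its introns and exons.

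**Figure D3:**
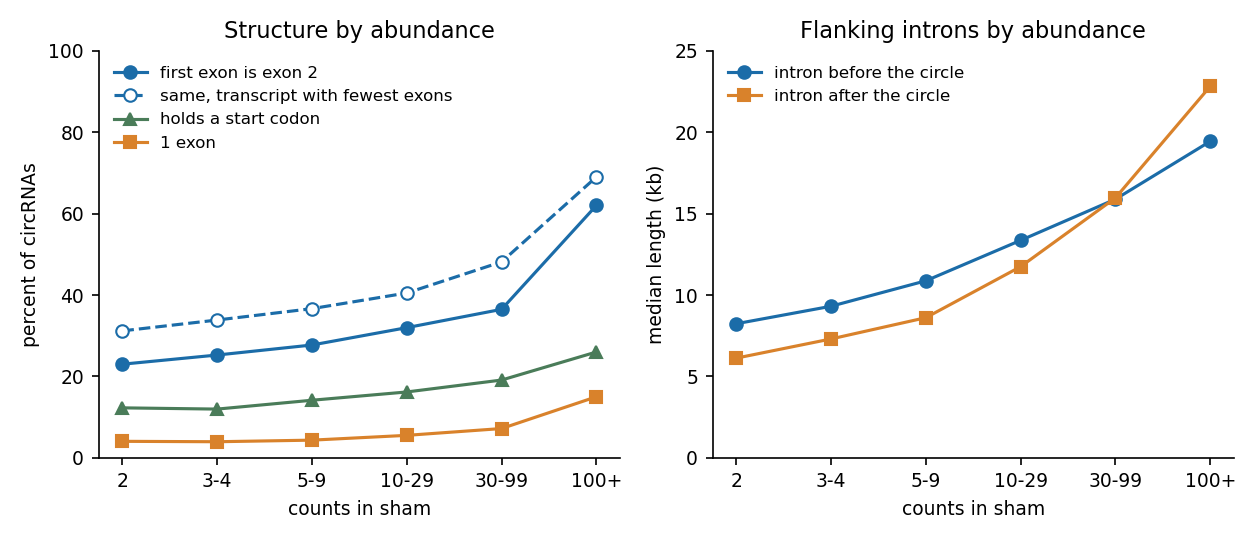
Structure of the circRNAs of the sham library in 6 classes of count, from 2 counts to 100 or more. The left panel gives the percent of circRNAs whose first exon is exon 2 (solid, and dashed along the transcript with the fewest exons), that hold a start codon or that have 1 exon. The right panel gives the median length in kb of the introns before and after the circle. All plotted measures are higher in the class of 100 or more counts than in the class of 2 counts.

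The introns beside circles were long. The 13139 introns that flanked a circle had a median length of 7202 bases, compared with 1564 for the other 46987 introns of the same transcripts. First introns are long in general, so introns were also compared by position. At intron 1 the medians were 18668 bases beside circles and 5088 elsewhere, at intron 2 12149 and 2987, and at later positions 5819 and 1477. Thus the difference between flanking and other introns was present at each of the 3 positions. Of 9235 circRNAs with an intron on each side, 67.9% had both introns longer than the median intron of their transcript and 4.99% had neither. CircRNAs that opened with exon 2 had a median upstream intron of 19953 bases and a median downstream intron of 8989, while for the others these were 7569 and 7930 bases.

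Flanking introns were also longer beside abundant circles. The median upstream intron was 8235 bases for circRNAs with 2 counts, 10873 for 5 to 9 and 19439 for 100 or more. Downstream the medians were 6122, 8607 and 22818 bases. The upstream medians were not split by first exon. CircRNAs opening with exon 2 had longer upstream introns and were more frequent among abundant circRNAs, and the part of this in the upstream rise was not tested. Spliced length moved little, with medians of 536 bases at 2 counts, 506 at 5 to 9 and 494 at 100 or more.

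**Figure D4:**
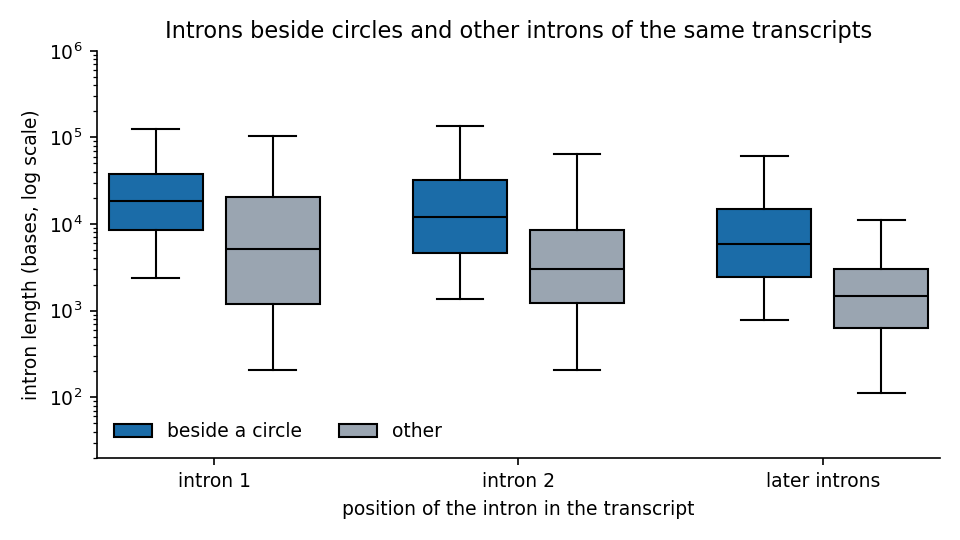
Lengths of introns beside circles of the sham library and of the other introns of the same transcripts, in bases on a log scale, at intron 1, intron 2 and later positions. Boxes (blue beside circles, grey elsewhere) run from the 25th to the 75th percentile with the median as the line, and whiskers from the 5th to the 95th. At each position the median is higher beside circles, 18668 compared with 5088 bases at intron 1.

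Most circles consisted of coding sequence. Of 9117 circRNAs on coding transcripts, 7589 (83.2%) held coding bases alone, 1394 (15.3%) held coding and untranslated bases and 134 (1.47%) only untranslated ones. The circle of Atxn1 exons 2 to 4, with 433 counts, was one of the last kind. An annotated start codon lay in 1261 circles (13.8%), with 18.2% of the counts of these 9117 circRNAs [17.9–18.4], and a stop codon in 178 (1.95%). Of circRNAs opening with exon 2, 37.5% held a start codon, compared with 4.63% of those opening later. Fat3 and Slc8a1 were among those with a start codon, while the Med13l circle holds coding bases but no start codon. Among the circles of coding bases alone, 38.6% had a length divisible by 3, close to the 40.4% of 47868 single internal coding exons.

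Base composition at the circle differed little from that of internal exons of the same transcripts. The median GC content was 47.5% for whole circles and 48.5% for single internal exons, which here include the exons inside circles. The last exon of a circle ended in AG in 56.5% of 7449 exons, compared with 57.1% of 49153 other internal exons. The first exon began with G in 44.0% of 6851 exons, compared with 47.5% of 49758.

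Hosts with several circRNAs differed in whether one of them led. For this, 1354 hosts with 2 or more circRNAs and 10 or more counts were used. In 705 of them (52.1%) the most abundant circRNA held over 50% of the host's counts. The median share was 52.7%, with quartiles of 37.9% and 70.6%, and 82 hosts had a share over 90% and 60 one under 25%. The share depended on how many circRNAs a host had, with a median of 80% for 2 circRNAs, where it cannot be under 50%, 53.8% for 3 to 4, 39.3% for 5 to 9 and 29.2% for 10 or more. Between classes of count per host it stayed at 52.9% for 10 to 29 counts, 53.0% for 30 to 99 and 50.9% for 100 or more.

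Among hosts with 100 or more counts, the extremes were far apart. Rnf169, a ubiquitin ligase of the DNA damage response, had 239 of 241 counts on 1 circRNA (99.2%). The transcription factor gene Nfix had 98.2%, Hdgfl3 97.9%, the palmitoyltransferase gene Zdhhc21 97.2% and Med13l 97.1%. At the other end the leading circRNA held 14.8% in Atp9b, a phospholipid-transporting ATPase family gene, 15.0% in Arhgap10, 15.9% in Vwa8 and in Stag1, a cohesin subunit, and 16.3% in the corepressor gene Rere. Those with the high shares had 2 circRNAs each, apart from Med13l with 4, while those with the low shares had 15 to 34.

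In several hosts the circRNAs shared a start and differed in their end. Atxn1 had 433 counts on exons 2 to 4, 300 on exons 2 to 3, 214 on exons 2 to 5 and 139 on exons 2 to 6. These 4 circRNAs, all from the start of exon 2, held 95.9% of the host's counts [94.6–97.0]. In Gigyf2 the start of exon 4, printed in capitals above, was used by 5 of 7 circRNAs and 98.5% of counts [97.5–99.2], and in Ssbp2 the start of exon 2 by 3 of 5 circRNAs and 99.6% [98.9–99.9]. Tasp1, the protease that cleaves the MLL protein, had 11 circRNAs from the start of exon 2 with 79.0% of counts [75.1–82.5], led by exons 2 to 8 with 153 counts and exons 2 to 4 with 89.

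In other hosts the end was shared. In Rims2, 7 circRNAs ended at the end of exon 22 and held 77.1% of the counts [73.7–80.3], led by exons 20 to 22 with 302 counts and exons 21 to 22 with 165. In its paralog Rims1, the leading circRNAs with both ends on boundaries shared a start, with 229 counts on exons 30 to 32 and 102 on exons 30 to 31. Among Rims1 circRNAs of this kind, the most used start held 54.9% of counts [50.8–58.9] and the most used end, that of exon 32, 50.9% [46.8–55.0]. These shares leave out the most abundant Rims1 circRNA (1:22346293-22393948, 503 counts), which has only 1 end on a boundary. That end is also the end of exon 32, so the shares understate how far Rims1 circRNAs share this end. Among circles with both ends on boundaries, the leading ones of Rims1 and Rims2 both had 3 exons and 516 spliced bases. In Arhgap10, 6 circRNAs shared the end of exon 18 with 39.0% of counts [35.1–43.0]. Its circle of exons 9 to 12, with 89 counts, shares no exon with the 3 whose junctions are printed above. Dgki, with the most circRNAs, had 166 counts on exons 9 to 15, and no other circRNA above 26 counts.

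**Figure D5:**
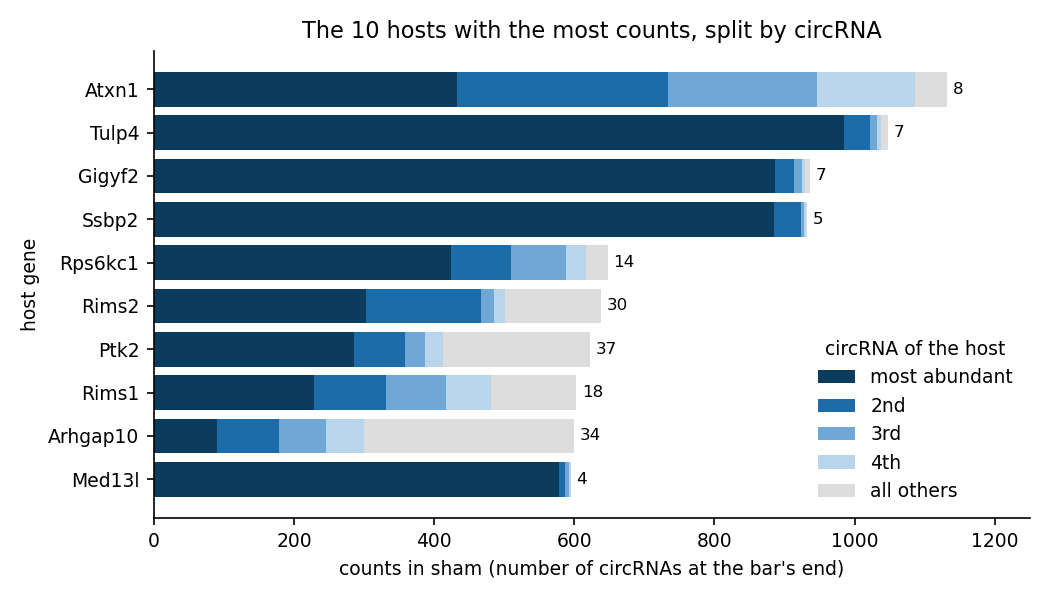
Counts of the 10 hosts with the most counts in sham, split by circRNA. Each bar is the summed count of 1 host, the segments are its 4 most abundant circRNAs and all others, and the number at the end is the number of circRNAs. Tulp4, Gigyf2, Ssbp2 and Med13l consist almost entirely of 1 circRNA, whereas Ptk2 with 37 and Arhgap10 with 34 circRNAs are split among many.

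Over all 1354 hosts, the circRNAs beside the leading one were counted by how they related to it. Of 5460 such circRNAs, 1299 (23.8%) began at the same place as the leading circRNA and held 32.5% of these counts [32.0–33.0]. Another 764 (14.0%) ended at the same place, with 16.7% [16.3–17.1]. A further 959 (17.6%) overlapped it with neither end shared, and 2438 (44.7%) lay elsewhere in the gene with 37.3% of the counts [36.8–37.8]. The hosts had 4426 distinct starts and 4948 distinct ends in all.

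The leading circRNA of a host was usually also the leading one in the other libraries. It was the same in 70.2% (core frontal), 71.9% (core occipital) and 70.4% (penumbra) of hosts. For 724 hosts with 10 to 29 counts these shares were 60.9%, 63.1% and 61.5%, and for 170 hosts with 100 or more they were 87.1%, 86.5% and 85.9%. The share was thus higher in hosts with more counts.

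Genes of the synapse and of neuronal excitability were among the hosts. The share of their lists that hosted a circRNA, from 12 of 23 to 20 of 24, stands beside 15.3% of all protein-coding genes, and the chromatin and ubiquitin lists given further on hosted in 20 of 28 and 26 of 28 cases. All these lists were chosen with earlier results of these data known. They were not matched to all protein-coding genes for gene length or expression. Their higher shares and counts per host are therefore no independent evidence of enrichment. Of 24 presynaptic genes of the active zone and vesicle release, 20 hosted circRNAs, with 2348 counts and a median of 27 per host, compared with 8 for all hosts. They were led by Rims2 and Rims1, followed by Erc2 with 297 counts from 14 circRNAs. Bsn, Ppfia4, Snap25 and Rph3a hosted none. Of 24 postsynaptic scaffold genes, 18 were hosts, with 2012 counts and a median of 40, led by Anks1b with 522 counts, Dlgap1 with 357 and Homer1 with 297. Homer1 exons 2 to 5, a circRNA studied earlier in brain, had 223 counts. Dlg4, which encodes the abundant postsynaptic scaffold PSD-95, hosted no circRNA. Homer2, Homer3, Dlg3 and Grip2 did not either.

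Receptor genes hosted fewer counts than scaffold genes. Of 24 glutamate receptor genes, 19 were hosts, with 504 counts and a median of 16. The NMDA receptor genes Grin2b and Grin2a had 118 and 68 counts and the metabotropic receptor gene Grm5 had 64. Of 15 GABA receptor genes, 12 were hosts, with 180 counts and a median of 11, and Gabra2 and Gabra4 had 34 counts each. Voltage-gated and related channel genes were hosts in 20 of 29 cases with 1418 counts and a median of 44, led by the potassium channel gene Kcnt2 with 399, the calcium channel subunit gene Cacna2d3 with 138 and the potassium channel gene Kcnh5 with 128. Among 23 synaptic adhesion genes (neurexins, neuroligins, latrophilins and their partners), 12 were hosts with 985 counts, led by the adhesion receptor gene Adgrb3 with 359 and including the latrophilin gene Adgrl3 with 103. All 4 Lrrtm genes and all 3 Flrt genes of this list hosted none.

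Chromatin and ubiquitin genes were also hosts. Of 28 chromatin genes, 20 hosted circRNAs, with 1062 counts and a median of 38.5. The histone methyltransferase genes Nsd2, Ash1l and Nsd1 led with 270, 143 and 109 counts. Of 28 ubiquitin ligase and deubiquitinase genes, 26 were hosts, with 872 counts and a median of 22.5, led by Mycbp2 with 144, Ubr3 with 131 and Itch with 66. A list of 24 genes whose circRNAs were studied earlier in brain held 23 hosts with 7248 counts, or 7.85% of the counts on hosts [7.68–8.03], and a median of 275. Since that list was made of genes with well-known circRNAs, its high counts are no independent evidence. No set was tested.

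Its only member without a circRNA was Cdr1, but the locus was not empty. Cdr1 (X:61184005-61185558, minus strand) lies within a circRNA of 1 exon, X:61183248-61186174, which was assigned by its ends to exon 6 of the lincRNA C230004F18Rik on the plus strand. RefSeq lists Cdr1as, the brain circRNA known for its many sites for the microRNA miR-7, as another name of that gene. The circle of 2927 bases had 131 counts in sham (1229 CPM [1028–1459]) and ranked 79th. The MCAO libraries had 179, 145 and 154 counts of it, in the same order as above. It was singled out after the values were seen.

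Markers of cell types were checked by the circRNAs their genes hosted, since linear RNA is not in this table. Of 8 markers of excitatory neurons, 5 were hosts with 159 counts, of which Grin2b gave 118 and the cortical transcription factor gene Rorb 5. The defining markers Slc17a7, Neurod6 and Tbr1 hosted none. Only Erbb4, with 8 counts, was a host among inhibitory neuron markers, and 3 of 8 astrocyte markers gave 13 counts. None of 8 microglial and none of 8 endothelial and mural markers hosted a circRNA with 2 or more counts. The oligodendrocyte, choroid plexus, striatal and cerebellar lists gave 2, 5, 19 and 26 counts. Of these, Pde10a gave all 19 striatal counts, and Drd1, Drd2 and Adora2a hosted none. Grm4 gave 24 of the 26 cerebellar counts, and Gabra6, Pcp2, Calb1, Cbln1, Barhl1 and Car8 hosted none. In bulk tissue, fewer cells of a type and fewer circRNAs per cell cannot be told apart, and a marker that hosts no circRNA says nothing of whether its cells were present.

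Most circRNAs of the sham cortex were also counted after MCAO, and depth of counting moved with this. Of the 10865, 6219 (57.2%) had at least 1 count in each of the other 3 libraries, and 610 (5.61%) had none in any of them. Among circRNAs with 2 counts 28.0% were in all 3, among those with 5 to 9 77.1%, among those with 10 to 29 1449 of 1464, and all 547 with 30 or more were in all 3. At low counts, absence from a library was not distinguishable from counting error.

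The overall measures were close to each other in the 4 libraries. Of numbered circRNAs with 2 or more counts, exon 2 opened 26.7% (core frontal), 27.0% (core occipital), 27.2% (penumbra) and 27.0% (sham). The 10 most abundant held between 5.95% (core frontal) and 6.09% (core occipital) of the counts, with sham at 5.96%. Single-exon circles made up 4.63%, 4.97%, 4.99% and 4.55% in the first order. The median was 4 exons in all 4. Hosts in which 1 circRNA held over 50% were 53.1%, 52.6%, 52.8% and 52.1%. The numbers of circRNAs with 2 or more counts, 11935, 9447, 10407 and 10865, followed the order of the library totals.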

How the data were processed

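Trizol RNA of perfused brain was depleted of ribosomal RNA and made into directional libraries, per the labels' protocols, which name both a TruSeq and a NEBNext kit. The deposited table holds whole-number counts per circRNA, without normalization, and each circRNA in it sums to 2 or more over the 4 libraries. TopHat2 2.0.10, Bowtie and mm9 are named, per the submitters' processing notes, but the coordinates lie on GENCODE M21 exon boundaries of GRCm38 (89.1% of starts, 0.192% when moved by 1 base), and GRCm38 was used. The circRNA caller is not given in the sources used here, nor whether a count is a read or a fragment at the junction. If counts are taken at the junction alone, they do not scale with the length of the circle. The deposited FPKM table was not used.

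The sham column was read alone at a minimum of 2 counts. A host required both ends on exon boundaries of 1 gene, with protein-coding genes preferred, and 64 circRNAs had more than 1 candidate. The table gives no strand, so strand was taken from the host, and genes that overlap cannot be told apart. Exons were numbered along the transcript with the most exons that held both ends, so circRNAs of 1 gene can refer to different transcripts, and 138 circRNAs had no such transcript. On 2000 simulated circles 99.6% of hosts were recovered, and the number of the first exon was the same as along the longest transcript for 61.2%. Flanking introns were counted once per transcript. Shares carry exact Clopper-Pearson and levels exact Poisson intervals, and without molecular identifiers PCR copies count as separate molecules. Python 3.11.15, pandas 2.3.3 and scipy 1.17.1 were used.

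Genes named in the text were the 10 leading circRNAs and hosts, the 10 hosts with the most circRNAs, the leading circRNA of each class of ends, exon number and first exon, the longest circles, the hosts with the highest and lowest leading share, and the 3 leading genes of each of the 9 gene and 9 marker lists. Some genes that meet these rules are not reported here. Members and lists were chosen with earlier results of these data known.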

Additional observations from a re-analysis of the deposited data

How the results depend on the processing

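No paired analysis was possible because there is 1 library per group and the labels number no replicates. With 1 sham library none could be left out. Of 59 values recomputed, 29 stayed within their interval or, for numbers of circRNAs and hosts, within 1.5 times the value reported, and 30 did not. Raising the minimum from 2 to 5 counts left 4373 circRNAs in 1986 hosts, with 450 holding 50% of the counts, and raising it to 10 left 2011 in 1121 hosts, with 268. At minimums of 5 and 10 counts, both ends lay on boundaries for 89.9% and 90.9%, the 10 most abundant held 7.21% and 8.80%, single-exon circles were 5.31% and 6.42%, exon 2 opened 30.9% and 34.6% of circRNAs with 41.0% and 43.9% of counts, 1 circRNA held over 50% in 62.5% and 72.5% of hosts, and the median leading share was 55.6% and 58.1%. At 10 counts the median was 3 exons. With circRNAs of 1 count included, these were 85.0% for both ends, 5.66% for the 10 most abundant and 25.5% and 37.6% for exon 2. The added circRNAs of 1 sham count were all also counted in another library. Those with 1 count in sham alone are missing from this setting. The share of counts on exon 2 was 38.9% along the transcript with the longest coding sequence, and exon 2 opened 35.7% of circRNAs with 48.0% of counts along that with the fewest exons. All shares for exon 2 and for single-exon circles are of numbered circRNAs and their counts. With hosts of 1 circRNA included, 1 circRNA held over 50% in 58.8% and the median share was 58.4%. At 10 or fewer counts the interval of a single circRNA is wide. The 10 counts of Grm4 exons 3 to 6 allow 45.0 to 173 CPM.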

Other observations

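Beyond protein-coding hosts, some long noncoding genes gave circRNAs with both ends on exon boundaries. After C230004F18Rik, the most abundant came from the lincRNA A230057D06Rik (7:61813262-61814190, exons 2 to 3) with 83 counts in sham and 76, 41 and 56 in core frontal, core occipital and penumbra. Snhg14 (7:59955645-59956800, exons 7 to 8), the long transcript that runs antisense to Ube3a, had 40 counts in sham and 30, 41 and 42 in the same order. The leading circRNAs of the lincRNAs Lncpint, 4933406I18Rik and Pvt1 lay between these, with 81, 81 and 44 counts in sham. The antisense genes Gm7854 and Rab10os had 15 and 11. These genes were named after their values were seen.

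CircRNAs with 1 end on an exon boundary had a free end that mostly stayed within the gene. Of 1073, 980 (91.3%) lay inside the host, 411 (38.3%) had the free end within an exon and 75 had it within 10 bases of a boundary, with a median distance of 1477 bases. Their 724 hosts included 500 that also had circRNAs with both ends on boundaries. The most abundant circRNA with neither end on a boundary lay in Snhg11 (2:158382504-158383163) with 159 counts in sham and 157, 111 and 114 in the other libraries. A circRNA with its ends on boundaries of different genes (5:150604177-150608440) had 76 counts, and one with no host (4:23771757-23772887) had 62.

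Of the 610 circRNAs counted in sham and in no other library, 316 had 2 counts, 245 had 3 to 4 and 1 had 10. That one came from Eed, a subunit of a Polycomb complex (7:89972231-89977049), and the next was from Itga8 with 9 counts. Both ends lay on exon boundaries of 1 gene for 480 of them (78.7%).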
